A study of Homo sapiens with 4 samples.

Results

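The S100 calcium-binding proteins were compared between monolayers and multicellular spheroids (MCS) of HCT116, a line of human colon carcinoma cells. The 10 genes S100A2, S100A3, S100A4, S100A6, S100A10, S100A11, S100A13, S100A14, S100A16 and S100P were taken by name, and make up 10 of the 19775 genes that the array measures through a probe set of 1 symbol. They had 13 of its 54675 probe sets. There were 2 untreated monolayer cultures and 2 untreated MCS cultures, prepared independently, with 1 array each, and total RNA was extracted from whole cultures. RNA from the rim and the core of an MCS was therefore measured together, and fewer cells expressing a gene cannot be told apart from less RNA per cell.

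S100 proteins are small proteins with EF-hand motifs that usually act as dimers, change shape when calcium binds, and then grip partner proteins such as annexins, cytoskeletal motors and p53. Some are also released from cells and bind receptors such as RAGE (AGER). Many of their genes lie side by side on the long arm of chromosome 1, and colon carcinomas are known to express several of them.

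Of the 10 members, 8 had a mean signal over the 4 arrays above 300 units and were tested against all genes. Each of these 8 was bright in both culture types, with no array below 905.3, so none passed through 1 group alone. S100A4, S100A11 and S100A14 were 2.54-fold to 3.52-fold brighter in MCS, S100A6 and S100A13 were modestly higher, S100A16 fell just short of the threshold, and S100A10 and S100A2 were not called. In all, 5 of the 8 were higher (limma, adjusted p under 0.05), where 19.0% of the 8721 genes tested were higher. By limma 0 of the 8 were lower, where 20.6% of genes were lower, and 0 were lower at an unadjusted p under 0.05. The methods' t-test, which they name for other assays, called 0 of the 8 higher and 0 lower at an adjusted p under 0.05. Among all 8721 genes it called 1 higher and 1 lower, so its counts cannot tell the members from other genes. Both MCS arrays lay above both monolayer arrays for 7 of the 8, against 33.4% of all genes tested. The median log2 difference (signal + 32, MCS minus monolayer) of the 8 was 0.48, beside -0.030 for all genes tested. The members were chosen with earlier results of these data known, so these contrasts with all genes describe the list and do not test it.

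Signals were scaled to one trimmed mean per array, and these directions are relative to it. Bacillus control transcripts were 1.82-fold brighter in MCS, with geometric means of 700.3 and 787.2 in monolayers and 1639 and 1113 in MCS, so that MCS replicate 1 stood apart. Scaling to them moved the median of all genes to -0.87, gave 183 higher and 3996 lower genes in place of 1656 and 1799, and left S100A4 as the 1 higher member and S100A2 as the 1 lower member. Hybridization controls differed by 1.09-fold, and scaling to them gave 1203 higher and 2214 lower genes and kept 4 higher members. The ratio of the 3′ to the 5′ probe sets of ACTB, a sign of RNA quality, was 2.64 and 2.34 in monolayers and 2.82 and 3.0 in MCS, with no overlap. The part of these controls and of this ratio in the differences was not tested.

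The stretches just before the starts of the 3 members with the largest increases, and of S100A10, which was not called, are shown for comparison. Each line gives 250 bases upstream of the RefSeq transcription start (GRCh38.p14, minus strand of chromosome 1, 5′ to 3′). The positions are chr1:153545807-153546056 for S100A4, chr1:152037005-152037254 for S100A11, chr1:153616326-153616575 for S100A14 and chr1:151993860-151994109 for S100A10. Capitals mark matches, on either strand, to the hypoxia response cores ACGTG and GCGTG, the AP-1 site TGANTCA, the TATA box TATAAA and the GC box GGGCGG.
S100A4: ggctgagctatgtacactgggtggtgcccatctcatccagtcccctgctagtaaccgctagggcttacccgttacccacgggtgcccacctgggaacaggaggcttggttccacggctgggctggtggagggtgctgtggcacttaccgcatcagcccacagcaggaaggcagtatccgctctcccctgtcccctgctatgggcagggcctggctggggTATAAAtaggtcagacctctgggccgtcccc
S100A11: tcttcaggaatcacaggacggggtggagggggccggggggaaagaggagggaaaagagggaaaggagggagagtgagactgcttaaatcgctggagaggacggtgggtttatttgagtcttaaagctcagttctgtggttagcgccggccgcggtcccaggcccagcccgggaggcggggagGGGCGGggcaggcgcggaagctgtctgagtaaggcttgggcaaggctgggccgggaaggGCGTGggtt
S100A14: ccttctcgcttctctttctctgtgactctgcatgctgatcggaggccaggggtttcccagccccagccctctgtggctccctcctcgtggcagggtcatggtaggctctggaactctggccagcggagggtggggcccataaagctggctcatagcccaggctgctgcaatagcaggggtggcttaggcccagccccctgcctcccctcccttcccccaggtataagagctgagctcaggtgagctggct
S100A10: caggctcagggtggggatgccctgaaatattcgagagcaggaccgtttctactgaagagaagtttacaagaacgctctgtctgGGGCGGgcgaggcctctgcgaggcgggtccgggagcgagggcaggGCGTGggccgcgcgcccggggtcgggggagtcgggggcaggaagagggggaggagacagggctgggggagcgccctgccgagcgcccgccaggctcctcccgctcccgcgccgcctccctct
The S100A4 window held a TATA box that began 31 bases before the start and none of the other 4 motifs. S100A11 and S100A10 each held 1 GC box and 1 GCGTG, and S100A14 held none of the 5. RefSeq lists 14 windows for the 10 members, since S100A2, S100A13 and S100A16 have several starts. GCGTG occurred in 7 of the 14 windows and ACGTG in 1 (S100A16), where 32.2% and 18.5% of all 35116 windows held them. The GC box occurred in 6 of the 14 (42.6% of all windows), TATAAA in 3 (10.7%) and the AP-1 site in 2, of S100A2 and S100A3 (6.57%). A match here is a run of letters and not a bound site.

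S100A4, also called metastasin, binds the heavy chain of non-muscle myosin IIA and is linked to cell motility and metastasis. Its signal was 4017 and 3247 on the monolayer arrays and 14266 and 11313 on the MCS arrays. The lowest MCS value was far above the highest monolayer value, and the log2 difference was 1.81 ± 0.16 (standard error, limma, adjusted p = 4.53e-06, n = 2 per group). It ranked 172nd from the top of all genes tested. With Bacillus scaling it was still called, but near the threshold (0.95 ± 0.40, limma, adjusted p = 0.0408). The gene was measured by 1 probe set, of the _s_at type, whose probes can match several transcripts.

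S100A11, or calgizzarin, is a partner of annexin A1 with roles in epithelial growth control and membrane repair. Signals of 2133 and 1466 in monolayers stood against 6351 and 4703 in MCS. The groups did not overlap, and the log2 difference was 1.61 ± 0.20 (limma, adjusted p = 7.71e-05). S100A14, an epithelial member with a degenerate calcium-binding loop, had signals of 996.1 and 1420 in monolayers and 2885 and 3247 in MCS. It was again higher on both MCS arrays, by 1.34 ± 0.19 (limma, adjusted p = 2.06e-04). With Bacillus scaling both values were positive but not called, at 0.76 for S100A11 and 0.49 for S100A14.

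**Figure D1:**
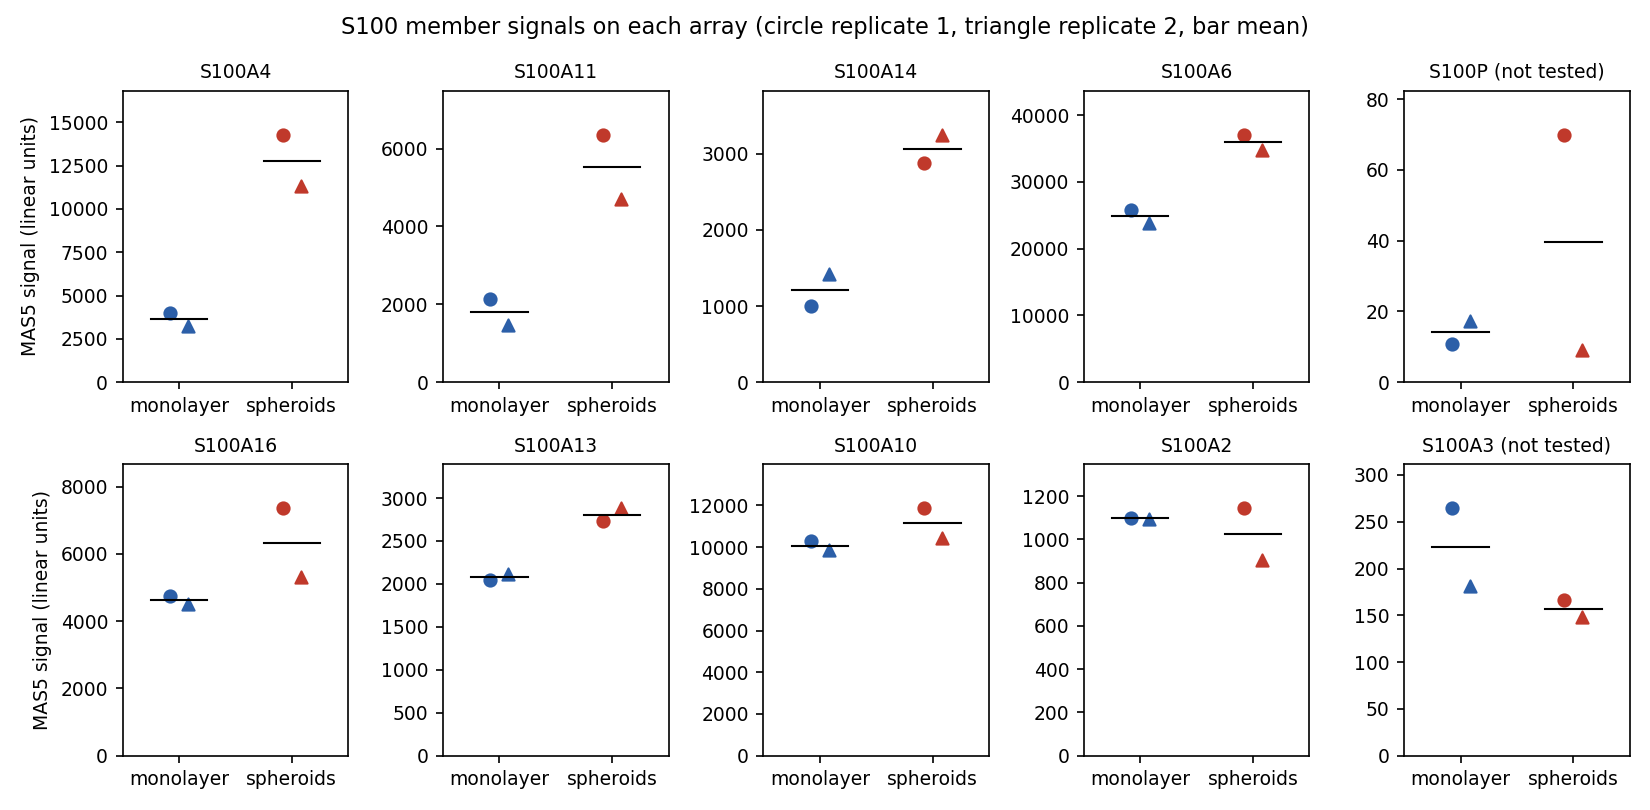
MAS5 signal (y, linear units, from 0) of the brightest probe set of each member on the 2 monolayer arrays (blue) and the 2 MCS arrays (red), with circles for replicate 1, triangles for replicate 2 and a bar at the mean. S100A4, S100A11 and S100A14 differ most in fold, S100A2 overlaps, and S100P (9.16 to 69.8) and S100A3 (147.7 to 264.2) were too dim to be tested.

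S100A6, or calcyclin, is a growth-regulated member that binds annexins and the protein CACYBP. Its signals were 25819 and 23865 in monolayers and 37045 and 34803 in MCS. The spread within each group was small, and the 1.45-fold increase was called (log2 difference 0.53 ± 0.10, limma, adjusted p = 0.00156), although its sign turned with Bacillus scaling (-0.33). A second, dim probe set for S100A6 lay at 77.4 and 101.4 in monolayers and 127.9 and 129.2 in MCS, in the same direction and untested.

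S100A13, which takes part in the non-classical release of FGF1, had signals of 2046 and 2112 in monolayers and 2737 and 2878 in MCS. Neither group overlapped the other, yet the change was 1.35-fold and near the threshold (log2 difference 0.43 ± 0.15, limma, adjusted p = 0.0427). Leaving out any of the 4 arrays ended the call, with values of 0.40 without monolayer replicate 1, 0.45 without monolayer replicate 2, 0.46 without MCS replicate 1 and 0.39 without MCS replicate 2. The sign turned with Bacillus scaling (-0.42). Its second probe set pointed the other way, at 260.5 and 172.8 in monolayers and 155.6 and 165.5 in MCS, below the filter, and as the mean of both probe sets the difference was 0.040 and not called. In all, 5 of 19 alternatives kept the call of S100A13, which was also lost with median scaling (0.38), hybridization control scaling (0.31), lower filters and no intensity trend.

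S100A16, a widely expressed member, had almost the same log2 difference as S100A13 but a wider spread. Its signals were 4753 and 4518 in monolayers and 7347 and 5312 in MCS. The difference of 0.43 ± 0.16 had a 95% interval of 0.078 to 0.78 and was not called (limma, adjusted p = 0.0516). MCS replicate 2 was the low array of its group. Without it the difference was 0.66 and called, as it was without monolayer replicate 1 (0.46) and with quantile normalization (0.52). Without MCS replicate 1 it was 0.20, and Bacillus scaling gave -0.43.

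S100A10 (p11) is the calcium-insensitive light chain of the annexin A2 complex at the plasma membrane. It gave 10278 and 9868 in monolayers and 11855 and 10451 in MCS. The MCS arrays were above the monolayer arrays by a small margin, with a log2 difference of 0.14 ± 0.12 and a 95% interval of -0.12 to 0.41 (limma, adjusted p = 0.380; -0.72 with Bacillus scaling). It was 0.053 without MCS replicate 1 and 0.23 without MCS replicate 2, neither called. A second S100A10 probe set read 74.5 and 49.3 in monolayers and 418.9 and 86.4 in MCS, so that 1 array made its high mean. It was below the filter, but as the mean of both probe sets the difference of S100A10 was 0.73, not called.

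S100A2, a p53-binding member found in the nuclei of epithelial cells, had signals of 1100 and 1094 in monolayers and 1143 and 905.3 in MCS. The groups overlapped, and the log2 difference was -0.11 ± 0.19 with a 95% interval of -0.53 to 0.32 (limma, adjusted p = 0.697). Without MCS replicate 2 it was 0.058, and with Bacillus scaling it was -0.94 and called lower.

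**Figure D2:**
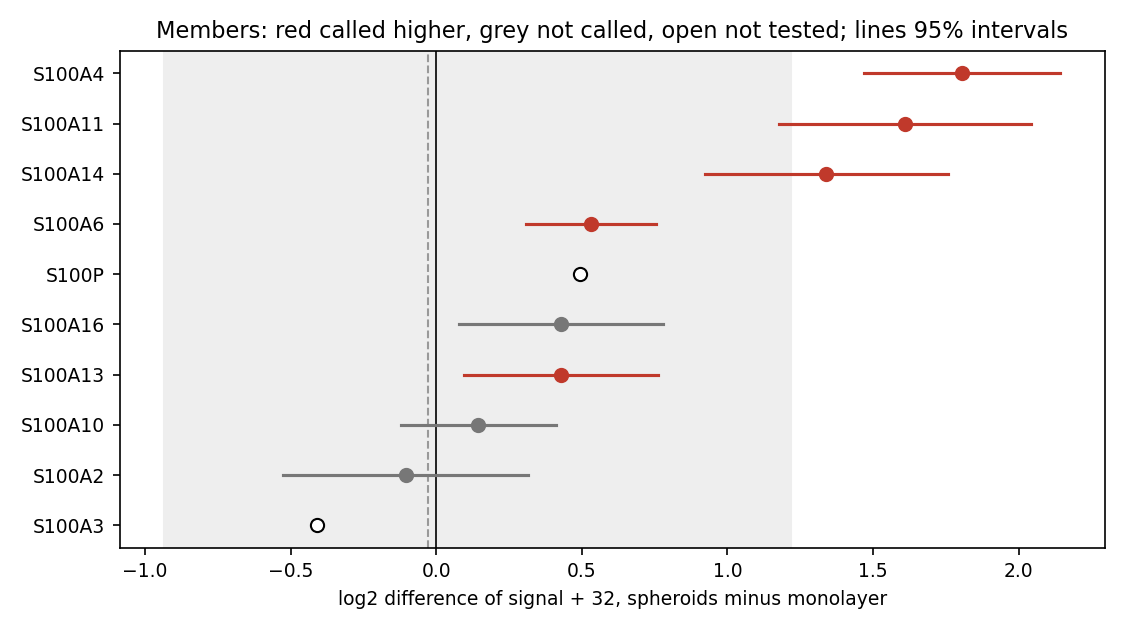
Log2 difference of signal + 32 (x, MCS minus monolayer, 2 arrays per group) for each member (y), with 95% intervals from limma, red where called higher, grey where not called and open where not tested. The grey band spans the 5th to 95th percentile of all genes tested (-0.93 to 1.22) and the dashed line their median (-0.030); S100A4, S100A11 and S100A14 lie to the right of the band, and with Bacillus scaling the values of S100A6, S100A16, S100A13 and S100A10 fell below 0.

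S100A3, best known from hair follicles and rich in cysteine, was dim, at 264.2 and 181.3 in monolayers and 166.8 and 147.7 in MCS. The monolayer arrays were the higher ones, and with no signal filter the log2 difference was -0.41 ± 0.36 (limma, adjusted p = 0.556). S100P, a ligand of RAGE and of ezrin, lay at 10.7 and 17.4 in monolayers and 69.8 and 9.16 in MCS. Its 3 lowest values fell inside the range of the dim trp control probe sets (4.47 to 35.0), and the MCS arrays lay on both sides of the monolayer arrays (0.50 ± 0.46, no signal filter, limma, adjusted p = 0.578). At this level a change in S100P was not detectable, whereas S100A3 lay above the control range and was not called (limma, adjusted p = 0.362 with a filter at 100).

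Changes relative to S100A10 hardly depend on how whole arrays are scaled, since both genes of an array move alike. The log2 ratio of S100A4 to S100A10 rose from -1.47 ± 0.17 in monolayers to 0.19 ± 0.11 in MCS (SD, n = 2), a change of 1.66. For S100A11 the change was 1.47 and for S100A14 1.20, and across each choice of 1 MCS and 1 monolayer array these 3 changes stayed positive, from 0.74 to 1.86. S100A6, S100A16 and S100A13 changed by 0.39, 0.28 and 0.28, and also stayed positive across each choice (lowest 0.315, 0.135 and 0.105). S100A2 changed by -0.25 and stayed negative (-0.35 to -0.15). These ratios used the brightest probe set of each gene. As means of probe sets S100A10 differed by 0.73, above S100A6 (0.47), S100A16 (0.43) and S100A13 (0.040). With that choice the relative changes of these genes turn negative. S100A4 (1.81), S100A11 (1.61) and S100A14 (1.34) stayed above S100A10, and S100A2 (-0.11) below it. All these ratios share the S100A10 values and reuse the same 2 arrays per group, so the pairs are not independent. How many of all genes would stay on one side was not counted. The own signals of S100A2 overlapped between the groups. Whether the members changed unequally was not tested, and the ratios do not show that any of them was stable. An exact permutation test over 2 against 2 arrays cannot go below p = 0.333, so none was run.

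The remaining 10 genes of the family each had a probe set, and none passed the signal filter. S100A8, S100A9 and S100A12, the calgranulins of myeloid cells, had signals from 3.97 to 63.2 at their brightest probe sets. S100A9 read 45.0 and 41.4 in monolayers and 10.7 and 3.97 in MCS. Its groups did not overlap, but both MCS values lay near or inside the control range, and with no filter the difference of -0.94 was not called (limma, adjusted p = 0.0957). S100A7 and S100A7A, skin members, gave 6.06 to 190.5 at their brightest probe sets, and S100A5 gave 34.9 to 103.9. S100A1, a muscle member, was 25.4 and 39.2 in monolayers and 80.3 and 53.9 in MCS (0.62, limma, adjusted p = 0.388 with no filter). S100B, S100G and S100Z stayed at or below 15.6. With no filter, 0 of these 10 were called, and 1 (S100A9) had an unadjusted p under 0.05 by limma as well as by the methods' t-test.

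On chromosome 1 the RefSeq order runs from S100A10 and S100A11, across the epidermal differentiation genes, to a run from S100A9 to S100A1. By their calls the higher members were not one block of neighbours. S100A4 and S100A14 were higher and S100A2, which lies between them, was not called, while S100A11 was higher and its neighbour S100A10 was not called. S100A16, also between S100A4 and S100A14, only just missed the threshold (limma, adjusted p = 0.0516), and S100A3 was too dim. Whether called and uncalled neighbours differed from each other was not tested. Genes that lie between the S100 genes or are among the 5 next to them on either side were also read. Of these 57 protein-coding genes, 31 had a probe set and 5 were tested. By limma 0 were higher and 2 lower, beside 19.0% and 20.6% of all genes tested, and 5 genes are too few to differ clearly from these shares. None of the 5 was higher at an unadjusted p under 0.05 (limma). ILF2, a double-stranded RNA-binding factor, was 13425 and 15287 in monolayers and 8526 and 8897 in MCS (-0.72 ± 0.12, limma, adjusted p = 6.90e-04). THEM4, a thioesterase gene next to S100A10, was lower by -0.61 ± 0.22 (limma, adjusted p = 0.0408), and was not called without monolayer replicate 1 (-0.38) or MCS replicate 2 (-0.43). CHTOP, SNAPIN and INTS3 were not called, at -0.093, -0.22 and -0.28.

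**Figure D3:**
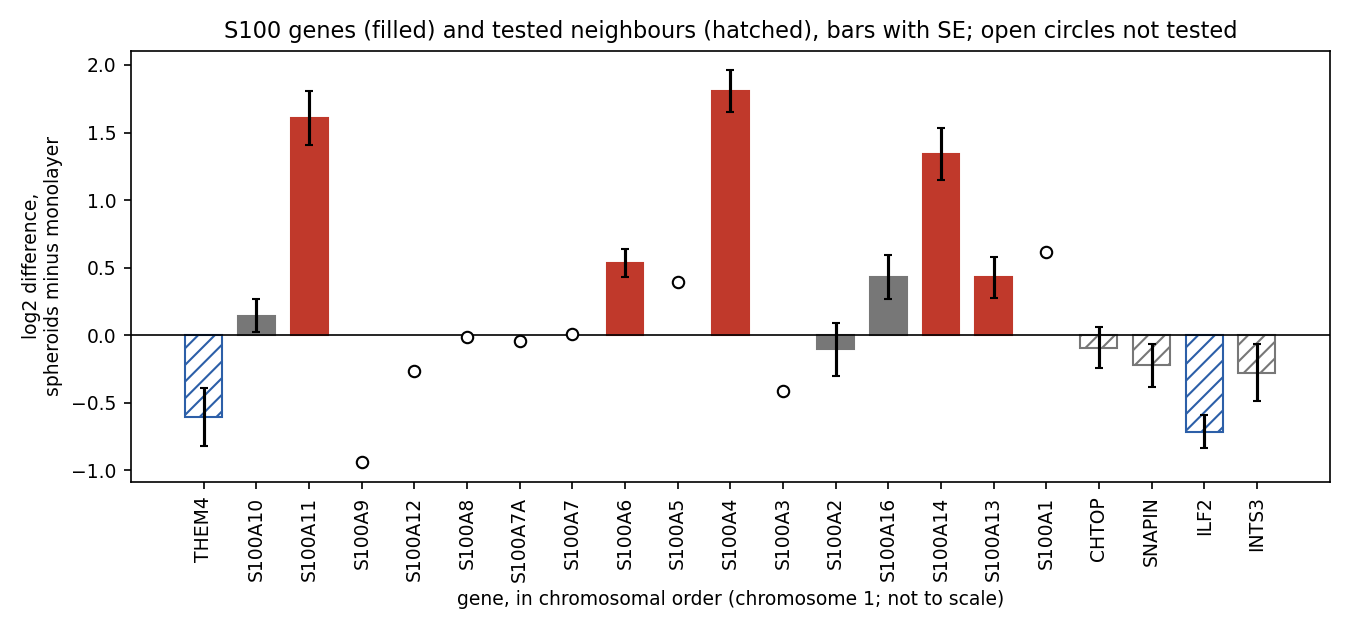
Log2 difference (y, MCS minus monolayer, bars with the standard error) of S100 genes (filled) and tested neighbours (hatched) in their order along chromosome 1 (x, not to scale), coloured red for higher, blue for lower and grey for no call. Open circles are S100 genes too dim to be tested; S100A2 and S100A16, not called, lie between S100A4 and S100A14, and with Bacillus scaling S100A6 and S100A13 were below 0.

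Partners of S100 proteins were followed through a list of 40 genes, of which 35 had a probe set and 25 were tested. Of these, 8 were higher and 4 lower (limma, adjusted p under 0.05), beside 19.0% and 20.6% of all genes, with a median difference of 0.12. PLAT, among the 8, passed the signal filter only through its MCS arrays. The annexins ANXA1, ANXA2, ANXA6 and ANXA11 were not called. ANXA2, the partner of S100A10, had signals of 32703 and 38355 in monolayers and 42023 and 41612 in MCS (0.24 ± 0.11, 95% interval 0.0098 to 0.47, limma, adjusted p = 0.0915), and it was called without monolayer replicate 2 (0.35). Without monolayer replicate 1 it was 0.12, and Bacillus scaling gave -0.62. ANXA1, the partner of S100A11, differed by -0.022 ± 0.13 (95% interval -0.29 to 0.25), was 0.11 without monolayer replicate 2 and 0.10 with quantile normalization, and was called lower with Bacillus scaling (-0.88). AHNAK, the giant scaffold that docks on the annexin A2 and S100A10 complex, was higher (0.91 ± 0.18, limma, adjusted p = 0.00159).

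S100A10 is known as a plasminogen receptor, and 3 genes of plasminogen activation were higher. PLAUR, the urokinase receptor, rose from 973.3 and 932.4 in monolayers to 3808 and 3738 in MCS, a log2 difference of 1.95 ± 0.16 (limma, adjusted p = 3.33e-06), and was the 1 partner still called higher with Bacillus scaling. PLAU, urokinase itself, differed by 0.79 ± 0.20 (-0.051 with Bacillus scaling), and PLAT, tissue plasminogen activator, by 0.88 ± 0.30. PLAT read 161.1 and 260.9 in monolayers and 467.7 and 349.0 in MCS, so it passed the filter only through the MCS arrays. It was not called with no signal filter (limma, adjusted p = 0.142), quantile normalization (0.69) or hybridization control scaling (0.77). The call of PLAU was lost without monolayer replicate 2 (0.60) or MCS replicate 1 (0.61), and that of PLAT without monolayer replicate 1 (0.58) or MCS replicate 1 (0.68). PLG, plasminogen, was not tested and lay between 34.9 and 93.5.

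Of the 5 partners listed for S100A6, CACYBP and SUGT1 were lower, while ANXA2, ANXA6 and ANXA11 were not called (0.24, 0.11 and 0.16). Over all genes tested 20.6% were lower, and 5 genes are too few to differ clearly from this share. CACYBP, the calcyclin-binding protein, was 20222 and 18883 in monolayers and 9414 and 9537 in MCS. This 0.485-fold change, with a log2 difference of -1.04 ± 0.11 (limma, adjusted p = 3.28e-05), was the largest decrease among the 25 partners tested and was called without any 1 of the 4 arrays. The probe set of CACYBP is of the _x_at type, whose probes can match several transcripts. CACYBP had no value with _x_at and _s_at probe sets left out. SUGT1, a co-chaperone that S100A6 binds, differed by -0.40 ± 0.13, not called without monolayer replicate 2 (-0.33) or MCS replicate 2 (-0.30). Altogether 8 of 19 alternatives ended its call, among them no signal filter, no intensity trend and means of probe sets (-0.38). PPP5C, a phosphatase bound by S100 proteins, differed by -0.76 ± 0.20, not called without monolayer replicate 1 (-0.60) or MCS replicate 2 (-0.67). TPM1, a tropomyosin, differed by -0.53 ± 0.19. It was not called without monolayer replicate 1 (-0.44), without monolayer replicate 2 (-0.62) or without MCS replicate 2 (-0.38). Without MCS replicate 2, 1 partner was called lower, and without monolayer replicate 1, 2 were.

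Of the motility partners, the myosin heavy chain MYH9, the target of S100A4, was not called (0.093 ± 0.20, 95% interval -0.34 to 0.53). IQGAP1, a scaffold bound by S100P, was higher (0.90 ± 0.14, limma, adjusted p = 4.20e-04), and EZR, the ezrin gene, was not called (0.12 ± 0.12), with the sign turned by Bacillus scaling (-0.74). SYT1, which acts with S100A13 in FGF1 release, was higher by 0.62 ± 0.18, a call lost without monolayer replicate 1 (0.42) or MCS replicate 2 (0.59). Among cell surface proteins, ALCAM (0.76 ± 0.14) and the integrin ITGB1 (0.55 ± 0.12) were higher. ITGB1 was not called without MCS replicate 2 (0.43), as the mean of its probe sets (0.19) or without _x_at and _s_at probe sets (0.36). With Bacillus scaling SYT1, ALCAM and ITGB1 fell below 0, at -0.23, -0.099 and -0.31. AGER, the RAGE receptor, was dim at 28.9 to 64.0, and TLR4 was 5.17 and 6.42 in monolayers and 37.9 and 47.7 in MCS; neither was tested.

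**Figure D4:**
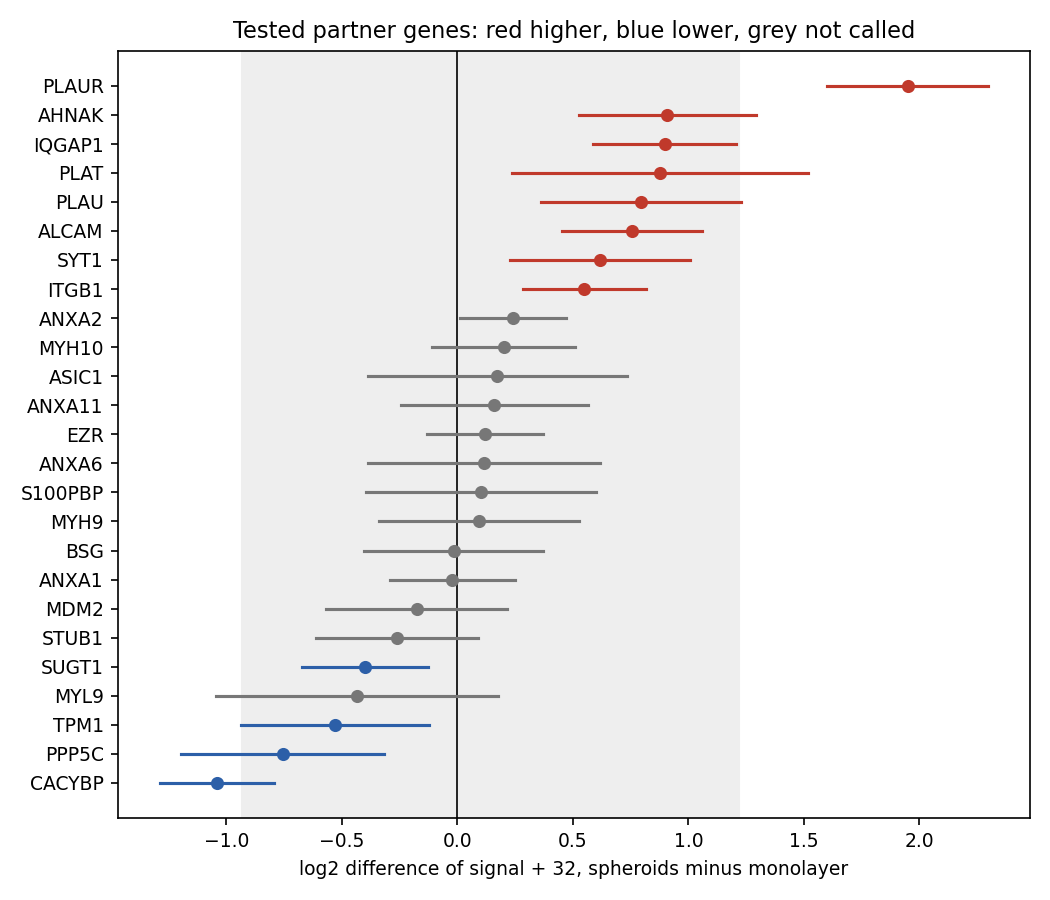
Log2 difference of signal + 32 (x, MCS minus monolayer) with 95% intervals for the 25 tested partner genes (y), coloured red for 8 higher, blue for 4 lower and grey for 13 with no call; the band spans the 5th to 95th percentile of all genes tested. PLAUR lies to the right of the band and CACYBP to its left; with Bacillus scaling 1 partner was higher and 8 were lower.

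The genes with the pattern most like S100A4, by the sum of squared differences between centred log2 values over the 4 arrays, were HLA-B, PRSS8, RBM4, PDGFA and SMARCA1, at 0.00834 to 0.0199. HLA-B, an MHC class I heavy chain whose probes can also match its close relatives, had 5658 and 4444 in monolayers and 18562 and 14820 in MCS. Like S100A4, it was higher in replicate 1 of each group. PRSS8, the membrane protease prostasin, differed by 1.82 and PDGFA, a growth factor, by 1.86. For S100A13, the called member with the smallest difference, the nearest genes were CHKB, SBF2, TMOD3, LINC00847 and ANKH, at 7.95e-04 to 0.00235. With 4 arrays such a match describes these values and no relation between the genes.

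Markers were read for the identity of the cells. EPCAM, an epithelial surface protein, had 27044 and 27171 in monolayers and 25873 and 29021 in MCS, with no difference called (0.016 ± 0.11). CDH1 (1.73) and KRT19 (0.79), epithelial too, were higher, while KRT8 (-0.49) and KRT18 (-0.11) were not called. KRT8 was lower on both MCS arrays, at 7851 and 6056 in monolayers and 5962 and 4003 in MCS (limma, adjusted p = 0.0534). The intestinal markers CDX1, CDX2 and VIL1 were below the filter. Of 6 myeloid markers 5 had a probe set and 0 passed the filter, yet their summed signal was 129.5 and 75.8 in monolayers and 251.0 and 274.3 in MCS. LYZ, lysozyme, had 3.79 and 1.54 in monolayers and 68.1 and 41.3 in MCS. PTPRC (19.4 and 2.02 to 38.1 and 36.3), ITGAM (41.3 and 40.2 to 82.7 and 92.8) and CSF1R (19.1 and 21.7 to 57.5 and 98.5) were also higher on both MCS arrays. CD14 alone went the other way, from 46.0 and 10.4 to 4.57 and 5.36. None of these markers was listed at 0. Of 6 fibroblast markers COL1A1 alone passed and was higher (1.64), with summed signals of 1098 and 802.7 against 2413 and 2776. COL1A1 made up most of these sums (868.6 and 657.8 in monolayers, 2222 and 2659 in MCS), the other 5 stayed at or below 78.2, and LUM was lower on both MCS arrays (74.6 and 31.5 in monolayers, 5.47 and 5.34 in MCS). Whether these low signals have a part in the S100 differences was not tested.

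**Figure D5:**
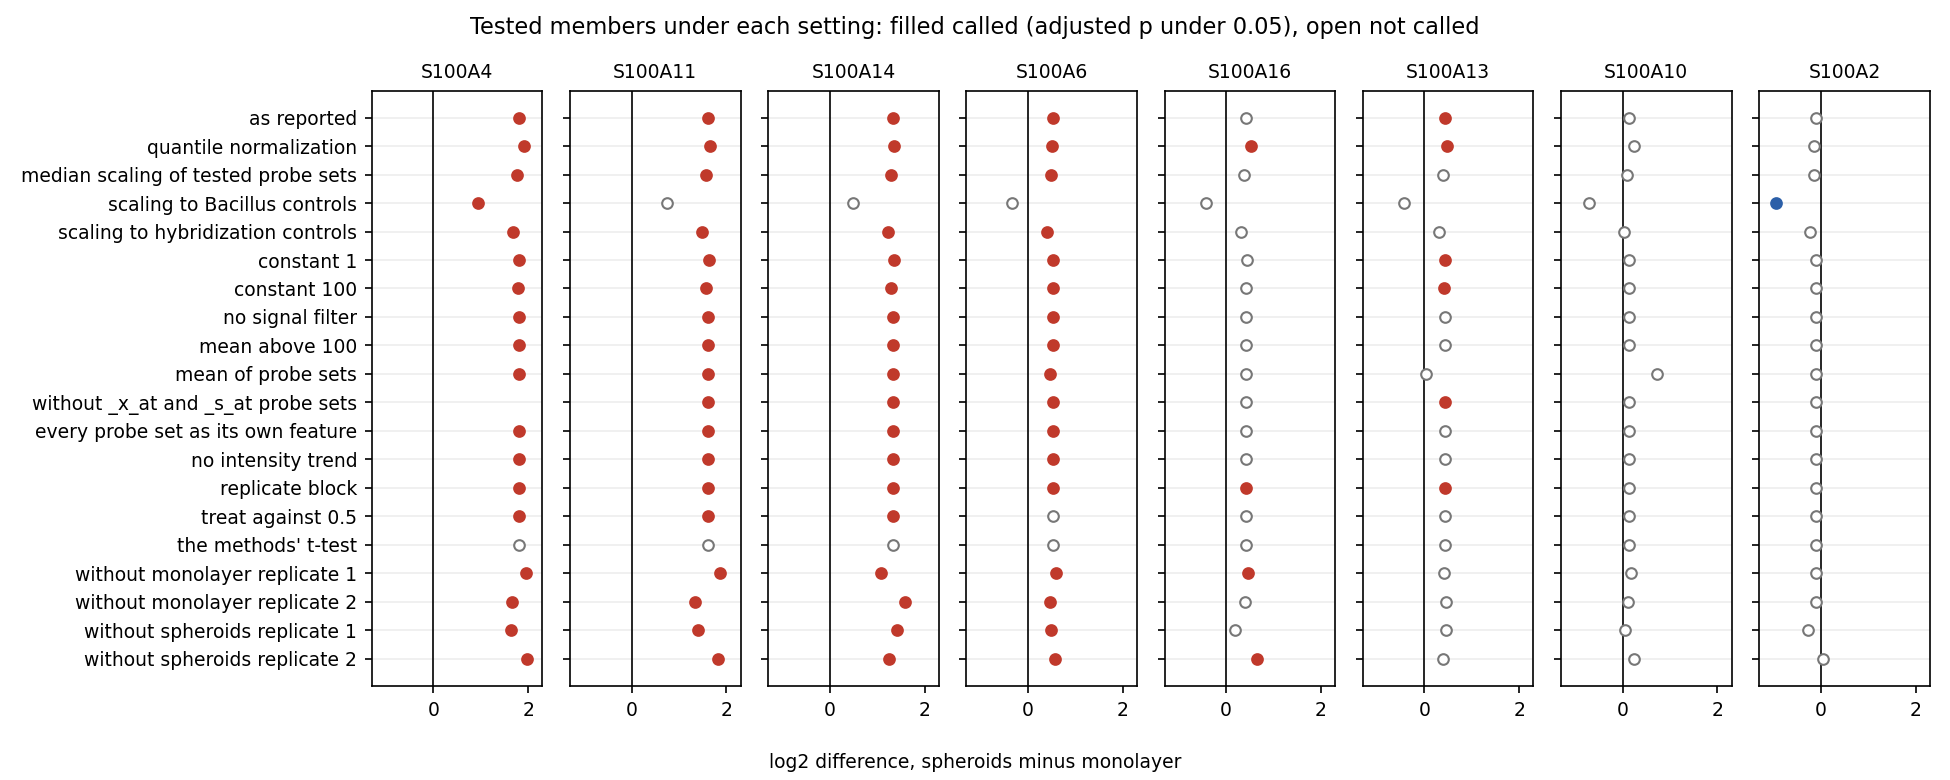
Log2 difference (x, MCS minus monolayer) of the 8 tested members under the reported setting and 19 alternatives (y), filled where called (red higher, blue lower) and open where not called. The values of S100A4, S100A11 and S100A14 stayed above 0 in each setting that measured them, whereas S100A6, S100A16, S100A13 and S100A10 turned negative with scaling to Bacillus controls.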

How the data were processed

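The authors hybridized biotin-labelled cRNA from 4 cultures to 1-colour Genome U133 Plus 2.0 arrays and normalized them with MAS5; they deposited 1 linear intensity for each probe set, and the MAS5 version and a genome build are not given in the sources used here. Each array had a trimmed mean of 500.1, so differences in total mRNA per cell were removed. Detection calls were not used here. Precision is limited by the number of arrays.

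The platform annotation gave 1 symbol for 41091 probe sets, several for 1801 and none for 11721, beside 62 controls; RefSeq matching by gene identifier changed 0 symbols. Values were taken as log2(signal + 32), so that changes of dim genes are understated. A mean above 300 over the 4 arrays was required, and each gene was represented by its brightest, giving 8721 genes. The comparison of groups used limma 3.58.1 in R 4.3.3 (lmFit, eBayes with an intensity trend, two-sided, Benjamini-Hochberg over all genes tested, threshold 0.05). Residual degrees of freedom were 2, with a prior of 10.5, and the fit was tested on simulated data. The smallest permutation p possible was 0.333.

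Members and lists were chosen with earlier results of these data known. Named were the 10 members with each probe set, the 10 other family genes, partners and genomic neighbours that were called or are paired with a member, and the 5 genes nearest in pattern to the member with the largest and that with the smallest difference among those called. Marker genes were read as a check. Promoter windows came from RefSeq by symbol, with 10 of 10 members matched. Alternatives were other scalings (quantile, median, Bacillus and hybridization controls), constants, filters and choices of probe set, a fit with no intensity trend, a replicate block, a fold threshold, the methods' t-test (named for other assays) and each array left out.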

Additional observations from a re-analysis of the deposited data

How the results depend on the processing

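S100A4, S100A11, S100A14 and S100A6 were called in each alternative that measured them, except by the methods' t-test (none of the 4), with Bacillus scaling (S100A4 alone) and against a log2 threshold of 0.5 (not S100A6). S100A4 has no probe set outside the _x_at and _s_at types, so it had no value there. Higher members numbered 1 with Bacillus scaling, 3 against a threshold of 0.5 and 0 by the methods' t-test after Benjamini-Hochberg (5 at an unadjusted p under 0.05; over all genes it called 1 higher and 1 lower). They were 4 to 5 with 1 array left out. With Bacillus scaling 1 member was lower.

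The members' median was -0.38 with Bacillus scaling, 0.36 with hybridization control scaling, 0.60 with means of probe sets and 0.46 to 0.62 with 1 array left out. Bacillus scaling turned the sign of S100A6 (-0.33), S100A10 (-0.72), S100A13 (-0.42), S100A16 (-0.43), ITGB1 (-0.31), ALCAM (-0.099), SYT1 (-0.23), PLAU (-0.051), ANXA2 (-0.62) and EZR (-0.74). EZR also turned with hybridization control scaling (-0.0012), means of its probe sets (-0.12) and with _x_at and _s_at probe sets left out (-0.54). ANXA1 turned with quantile normalization (0.10) and means of probe sets (0.54), and ran from -0.16 to 0.11 with 1 array left out; S100A2 ran from -0.27 to 0.058.

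Higher partners numbered 1 with Bacillus scaling, 4 of 9 tested without _x_at and _s_at probe sets, 1 against a threshold of 0.5 and 0 by the t-test (4 at an unadjusted p under 0.05). Lower partners numbered 8, 0, 1 and 0 (1 unadjusted) in the same settings, 2 with no filter or no intensity trend, 1 with means of probe sets and 1 to 4 with 1 array left out. Over all genes, 498 were higher and 294 lower against a threshold of 0.5, and 1118 were higher and 1114 lower of 6094 tested without _x_at and _s_at probe sets, in place of 1656 and 1799 of 8721. The causes were not tested.

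With the replicate number as a block (replicate block), 6 members were higher, S100A16 being added (0.43), and 9 partners, ANXA2 being added (0.24), with 2114 higher and 2301 lower genes in all. The replicate differences of the 2 groups correlated at 0.32 across genes, but nothing in the labels says that a number marks a shared batch, so this fit was not preferred. Signals near those of the dim trp controls (4.47 to 35.0) limit S100P and the dim family members.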
